A study of Mus musculus with 8 samples.

Results

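The cytosolic ribosomal protein genes were described in RNA from whole spleens of TTPΔARE and wild-type (WT) mice. They were chosen by a rule on gene symbols that uses no measured value: Rpl or Rps followed by a number and at most 1 letter, with Rplp0, Rplp1, Rplp2 and Rpsa, and without S6 kinase and pseudogene symbols. The rule found 79 genes among the 17738 gene symbols of the deposited table, 47 of the large (60S) and 32 of the small (40S) ribosomal subunit. Of these, 70 had 1 RefSeq transcript in the table and 9 had several, for which the transcript with the highest mean was used.

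The TTPΔARE group was 4 male mice of the C57BL/6 strain aged 8 to 12 weeks, and the WT group was 4 male mice of the same strain and age. Neither group was treated. TTPΔARE removes an AU-rich element from the mRNA of Zfp36, the gene for the mRNA decay factor tristetraprolin (TTP). Neither the number of mutated copies nor litters or batches could be taken from the labels. RNA was measured as FPKM, fragments scaled to transcript length and library size, which allows levels of different genes to be compared.

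Each ribosome is built from ribosomal RNA and a fixed set of ribosomal proteins, most of them present once, so cells make these proteins in matched amounts. Their transcripts begin with a C followed by a short run of C and T, the terminal oligopyrimidine (TOP) tract, through which mTOR signalling and the binding protein Larp1 set their translation together. They are expressed in every cell type of the spleen, and in humans inherited variants in several of them cause Diamond-Blackfan anaemia, a failure of red cell production.

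The RefSeq table of GRCm38.p6 held promoter entries for 58 of the 79 genes. The start regions of 8 of the genes named below are shown, since a TOP tract begins at the start of the transcript. Each window covers 15 bases before and 15 bases from the annotated start, 5′ to 3′ on the transcribed strand, and capitals mark the longest run of C and T.

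Rpl34, chr3:130730323-130730352, minus strand: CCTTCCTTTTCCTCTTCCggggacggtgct

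Rps15a, chr7:118116133-118116162, minus strand: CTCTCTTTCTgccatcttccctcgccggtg

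Rps27, chr3:90213634-90213663, minus strand: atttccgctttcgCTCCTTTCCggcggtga

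Rpl31, chr1:39367836-39367865, plus strand: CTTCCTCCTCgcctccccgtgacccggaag

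Rpl28, chr7:4792950-4792979, plus strand: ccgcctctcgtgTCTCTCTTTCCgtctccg

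Rpl14, chr9:120571502-120571531, plus strand: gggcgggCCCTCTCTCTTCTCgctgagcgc

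Rplp2, chr7:141447636-141447665, plus strand: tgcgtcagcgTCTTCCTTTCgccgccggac

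Rps3, chr7:99483695-99483724, minus strand: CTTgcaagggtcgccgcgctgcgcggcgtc

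Rpl34 has 2 annotated starts, of which the one with the longer run is shown, and the other has a run of 8 bases. Runs were marked by length alone. The marked runs of Rps15a, Rpl31 and Rps3 end before the annotated start, so by this annotation they lie outside the transcript. In the other genes shown the run begins before the start and crosses it. The windows shown do not stand for all named genes. Among those not shown, the longest run was 5 bases for Rplp0, Rpsa and Rps16 and 7 for Rps25 and Rpl12. It was 10 for Rps6 and 13 for Rpl13a. Within 30 bases on either side of an annotated start, 34 of the 58 genes (58.6%) had a run of at least 8 bases each C or T on the transcribed strand, against 25.8% of 27025 genes with an entry. On the other strand the run was found for 8 of the 58 (13.8%) and for 28.7% of all genes. The letters CTTTCC, which can lie inside such a run, were found on the transcribed strand for 12 of the 58 (20.7%) and 3.40% of all genes, and on the other strand for 1 of the 58 and 3.13% of all genes. Rps3 was among the genes with no such run in its window, and an annotated start can lie some bases from the one that is used. The 33 tested genes with the run had a median log2 difference between the genotypes of -0.09 and the 24 without it -0.08.

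Ribosomal protein mRNAs were among the most abundant transcripts of the spleen. Of the 100 transcripts with the highest mean over the 8 spleens, 61 were members, as were 23 of the top 50. Mean levels reached at least 100 FPKM for 73 of the 79 genes, and the median of the tested members was 317.9 FPKM, against 4.28 FPKM over all 16608 transcripts tested. Rps3a, a small subunit protein at the mRNA exit side, was the highest at a mean of 865.0 FPKM. The stalk protein Rplp1 followed at 754.3 FPKM, then Rpl13a, which in human cells also takes part in silencing translation after interferon-gamma, at 704.1 FPKM, and Rpl12 at 635.6 FPKM. Rps27l, a paralog of Rps27 that p53 induces, was the lowest of the tested members at 25.4 FPKM. Rpl39l, a paralog of Rpl39 known for its expression in testis, had a mean of 0.0843 FPKM and was the 1 member not tested, since it lay under the minimum mean of 0.5 FPKM. The median mean level was 286.1 FPKM for the 46 tested genes of the large subunit and 357.0 FPKM for the 32 of the small subunit.

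No ribosomal protein gene differed between TTPΔARE and WT spleens past the threshold. In a limma fit of log2(FPKM + 0.5) to all transcripts above that minimum, 0 of 78 members had a Benjamini-Hochberg adjusted p under 0.05, against 4.00% of all transcripts tested. At an unadjusted p under 0.05 there were 3 of 78 members, Rpl34, Rps15a and Rps20, which is 3.85%, against 21.1% of all transcripts. The smallest adjusted p of a member was 0.193, for Rpl34. Each gene is represented here by its transcript with the highest mean. Of 13 further transcripts of members, 0 passed and 11 were below 0. The smallest limma adjusted p among them was 0.105, for another transcript of Rpl31. The groups did not overlap for 3 of 78 members, Rps25, Rpl3 and Rplp0, again 3.85%, against 12.5% of all transcripts. The share of members past each criterion was thus no larger than that of all transcripts, and a test of that difference was not run.

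The differences were small and mostly on 1 side of 0. The log2 difference, TTPΔARE minus WT, was below 0 for 71 members and above 0 for 7, against 49.0% below 0 over all transcripts. The median over members was -0.08 on the log2 scale, which is 5.63% lower in TTPΔARE, and the median over all transcripts was 0.003. Differences ran between -0.31 and 0.05. The 95% interval of a member reached 0.18 to either side at the median, more than the median difference, and for 77 of 78 members the interval lay inside -0.5 to 0.5. The exception was Rpl34, with an interval of -0.59 to -0.03. The members share the same 8 libraries and varied together, so the count of 71 is not a count of independent genes.

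The size of this shift depended on single spleens. Without WT replicate 1 there were 55 members below 0 and a median of -0.03. Without TTPΔARE replicate 2 the count was 53 and the median -0.05. With globin transcripts left out and the remainder rescaled, 60 were below 0 and the median was -0.05. In that setting the median over all transcripts was also higher, at 0.028 against 0.003 in the main fit. With quantile normalization 37 were below 0 and the median was 0.003. This method gives each rank the same value in every spleen, and members were 61 of the 100 transcripts with the highest mean. It can thus remove a shift that they share, and how far it did so was not tested. Globin made up 7.19 to 10.3% of the FPKM sum in TTPΔARE spleens and 3.03 to 5.53% in WT spleens, and its part in the ribosomal difference beyond the rescaled values was not tested.

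**Figure D1:**
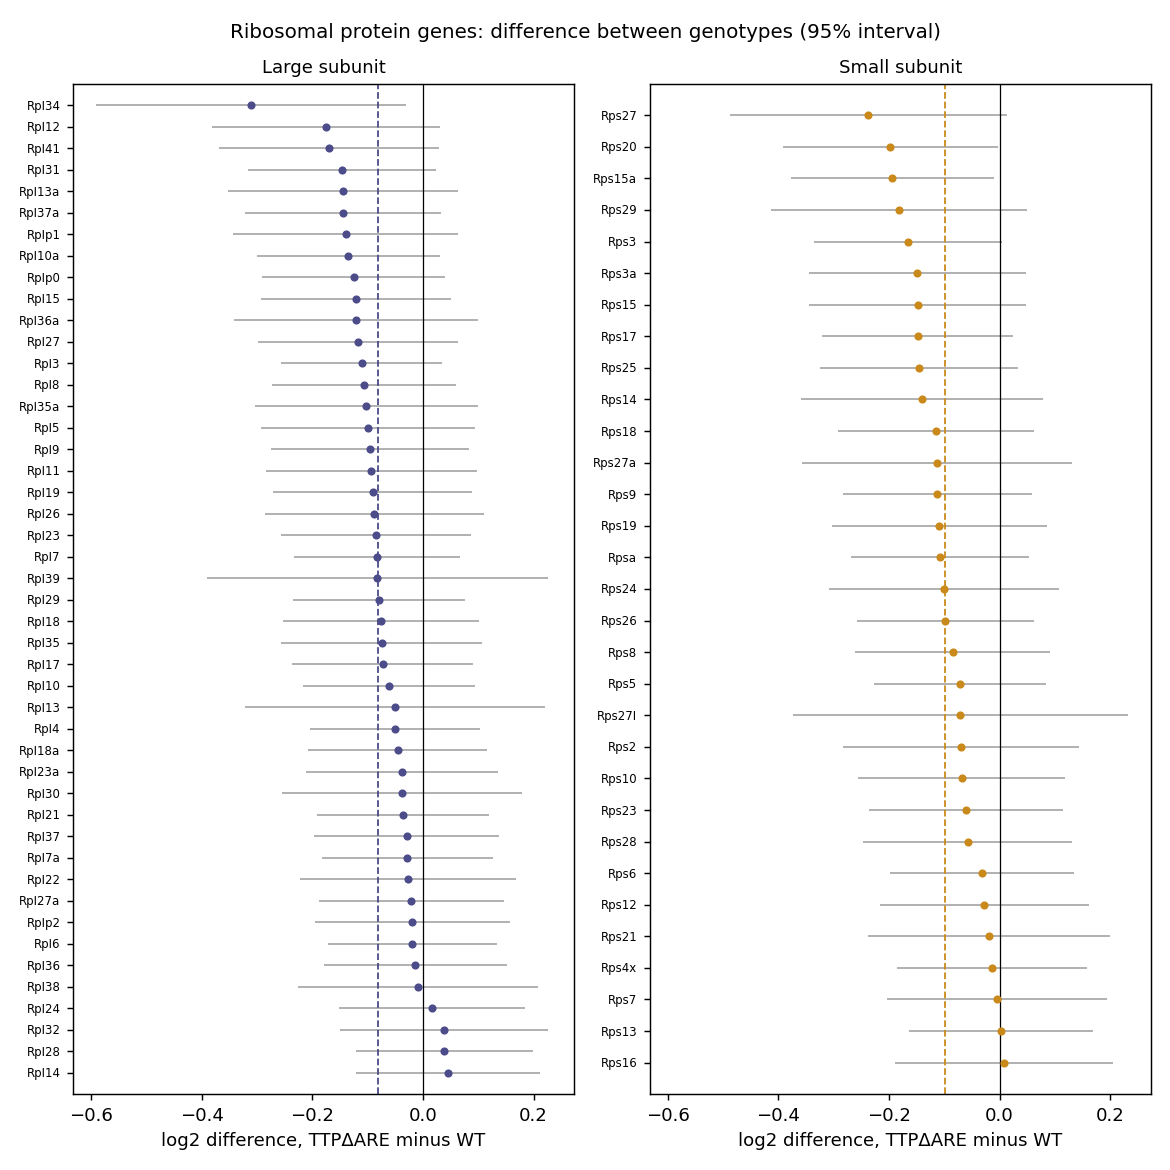
Log2 difference, TTPΔARE minus WT, on the log2(FPKM + 0.5) scale (points) with its 95% interval from limma (lines) for 77 of the 78 genes tested, split by subunit and ordered by the difference, with the median of all tested genes of the subunit dashed. Most points lie left of 0, most intervals cross 0, and the medians are -0.08 for the large and -0.10 for the small subunit.

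Rpl34, a large subunit protein, had the smallest p of all members. Its levels were 224.4, 258.1, 276.8 and 234.3 FPKM in TTPΔARE spleens and 412.0, 280.9, 279.0 and 276.0 FPKM in WT spleens. The 3 other WT spleens lay within 5 FPKM of each other, WT replicate 1 stood far above them, and the groups overlapped by less than 1 FPKM. The log2 difference was -0.31 (SE 0.128, limma adjusted p = 0.193), and -0.17 without WT replicate 1. A second Rpl34 transcript averaged 42.4 ± 3.13 FPKM in TTPΔARE and 47.1 ± 8.04 FPKM in WT (SD, n = 4 each; log2 -0.14), and the pseudogene Rpl34-ps1 averaged 83.1 ± 9.503 FPKM in TTPΔARE and 89.6 ± 14.7 FPKM in WT (log2 -0.10). Ribosomal protein genes have many processed pseudogenes of nearly the same sequence, and the labels do not say how reads that match several places were assigned, so levels of single members are uncertain to that extent.

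Rps15a of the small subunit had 59.4, 69.6, 68.7 and 74.3 FPKM in TTPΔARE spleens and 88.7, 72.4, 75.6 and 74.7 FPKM in WT spleens (log2 -0.19, SE 0.0838, adjusted p = 0.215). Rps20, a protein of the 40S head, had 336.5, 333.1, 342.5 and 389.7 FPKM in TTPΔARE spleens and 466.9, 384.8, 388.2 and 371.3 FPKM in WT spleens (log2 -0.20, SE 0.0884, adjusted p = 0.229). In both genes WT replicate 1 was the highest and TTPΔARE replicate 4 reached into the WT range. Rps3, which lines the mRNA entry channel of the 40S head, had 243.2, 255.8, 259.6 and 275.2 FPKM in TTPΔARE spleens and 330.9, 274.9, 280.4 and 276.1 FPKM in WT spleens (log2 -0.17, adjusted p = 0.248). Rps27, a zinc finger protein of the small subunit, had 313.2, 337.7, 335.4 and 397.2 FPKM in TTPΔARE spleens and 508.4, 399.8, 366.7 and 365.4 FPKM in WT spleens (log2 -0.24, adjusted p = 0.260). Rpl31 of the large subunit had 146.1, 165.4, 154.9 and 160.5 FPKM in TTPΔARE spleens and 197.9, 157.5, 171.0 and 169.2 FPKM in WT spleens (log2 -0.15, adjusted p = 0.312). All 3 overlapped between the groups in the transcript used and had their highest value in WT replicate 1. Another Rpl31 transcript averaged 29.3 ± 1.26 FPKM in TTPΔARE and 34.8 ± 3.99 FPKM in WT (SD, n = 4 each). Its groups did not overlap (log2 -0.24, limma adjusted p = 0.105), and WT replicate 1 was the highest at 40.7 FPKM. A further Rpl31 transcript had a log2 difference of -0.19 (limma adjusted p = 0.212). Without WT replicate 1 the log2 differences were -0.13 for Rps15a, -0.12 for Rps20, -0.10 for Rps3, -0.13 for Rps27 and -0.08 for Rpl31.

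**Figure D2:**
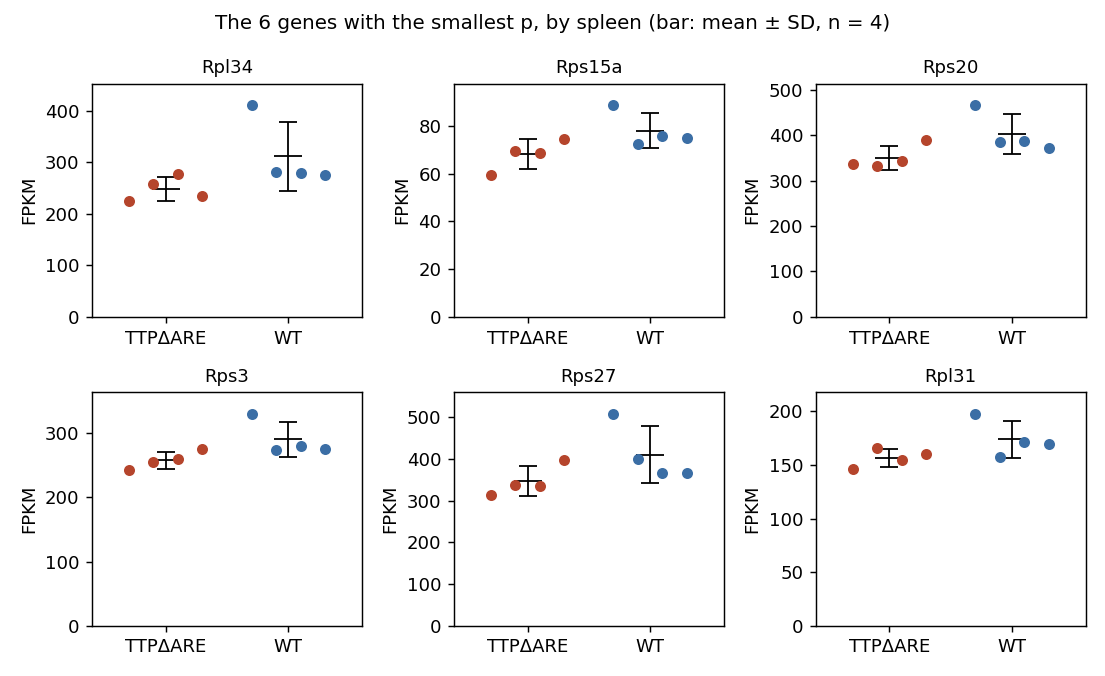
FPKM in each spleen (points, replicates 1 to 4 left to right) with the mean ± SD (n = 4 each) for the 6 genes with the smallest p, TTPΔARE left of WT. In every panel the highest point is WT replicate 1, at 412.0 FPKM for Rpl34 and 508.4 FPKM for Rps27.

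In 3 genes every TTPΔARE spleen lay below every WT spleen in the transcript used. Rps25, a small subunit protein used by some viral internal ribosome entry sites, had 306.8, 311.0, 316.9 and 315.7 FPKM in TTPΔARE spleens and 406.5, 337.1, 323.3 and 323.2 FPKM in WT spleens. Rpl3, which reaches the peptidyl transferase centre, had 440.9, 425.5, 451.4 and 446.0 FPKM in TTPΔARE spleens and 510.0, 455.8, 469.9 and 470.9 FPKM in WT spleens. Rplp0, the base of the stalk, had 521.9, 491.6, 528.0 and 526.7 FPKM in TTPΔARE spleens and 630.5, 536.9, 546.0 and 546.3 FPKM in WT spleens. The gap between the groups was under 10 FPKM in each gene, and the log2 difference was -0.15 for Rps25, -0.11 for Rpl3 and -0.13 for Rplp0 (limma adjusted p = 0.340 for Rps25, 0.375 for Rpl3 and 0.380 for Rplp0). Without WT replicate 1 it was -0.07 for Rps25, -0.08 for Rpl3 and -0.07 for Rplp0.

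The stalk recruits the elongation factors that use GTP, and its 4 listed genes, Rplp0, Rplp1, Rplp2 and Rpl12, were all below 0 (median -0.13) with 0 past the threshold. Of all 78 tested members 71 were below 0. Rplp1 averaged 716.2 ± 37.8 FPKM in TTPΔARE and 792.3 ± 92.2 FPKM in WT (SD, n = 4 each; log2 -0.14), while its partner Rplp2 averaged 288.5 ± 25.9 FPKM in TTPΔARE and 291.9 ± 18.3 FPKM in WT (log2 -0.02). The difference of Rplp2 was above 0 without WT replicate 1 (0.011), without WT replicate 2 (0.0003) and without TTPΔARE replicate 2 (0.04), and also with quantile normalization (0.09), with globin transcripts left out (0.01) and with sample weights (0.01). Rpl12, which joins Rplp0 at the stalk base, averaged 595.5 ± 27.7 FPKM in TTPΔARE and 675.7 ± 87.1 FPKM in WT (log2 -0.18, adjusted p = 0.320). The difference was -0.06 for Rplp1 and -0.09 for Rpl12 when WT replicate 1 was left out.

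All 10 listed proteins of the 40S head were below 0 (median -0.13), and 0 passed the threshold. Among 9 orthologs of human Diamond-Blackfan anaemia genes, again all were below 0 (median -0.10) and 0 passed. Both groups were close to the whole family, in which 71 of 78 tested members were below 0 (median -0.08). Erythroid transcripts were higher in the same spleens, and a link was not tested. Rps19, the gene first tied to that anaemia, had 312.9, 326.2, 351.4 and 358.3 FPKM in TTPΔARE spleens and 417.3, 343.1, 373.9 and 324.5 FPKM in WT spleens, so the ranges overlapped broadly (log2 -0.11, adjusted p = 0.531, and -0.04 without WT replicate 1). Rpl5 and Rpl11, which form a particle with 5S ribosomal RNA and can bind the p53 regulator Mdm2, had log2 differences of -0.10 and -0.09 (adjusted p = 0.573 and 0.597). Rps7 stood at 416.9 ± 33.3 FPKM in TTPΔARE and 419.1 ± 45.9 FPKM in WT (log2 -0.005).

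Rpsa, whose human ortholog is mutated in isolated congenital asplenia, a lack of the spleen at birth, had 347.8, 340.5, 372.6 and 380.8 FPKM in TTPΔARE spleens and 427.0, 365.7, 383.9 and 378.3 FPKM in WT spleens. TTPΔARE replicates 3 and 4 lay inside the WT range, and the difference did not pass (log2 -0.11, 95% interval -0.27 to 0.05, adjusted p = 0.443, and -0.06 without WT replicate 1). Rps6, the protein that S6 kinases phosphorylate downstream of mTOR, averaged 323.1 ± 26.4 FPKM in TTPΔARE and 329.8 ± 14.97 FPKM in WT (SD, n = 4 each; log2 -0.03). Rps27a, made as a fusion with ubiquitin, averaged 174.2 ± 19.97 FPKM in TTPΔARE and 189.0 ± 28.7 FPKM in WT (log2 -0.11), and Rps27l 24.7 ± 3.73 FPKM in TTPΔARE and 26.1 ± 5.25 FPKM in WT (log2 -0.07). Rps27l and Rpl39 had the largest spread within groups of all members (residual SD 0.250 and 0.243 on the log2 scale). Rpl39, whose protein lines the exit tunnel of the nascent chain, had 428.1, 571.6, 490.6 and 608.2 FPKM in TTPΔARE spleens and 698.8, 473.7, 570.7 and 485.8 FPKM in WT spleens.

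The 2 largest positive differences were those of Rpl14 and Rpl28, both of the large subunit. Rpl14 had 176.2, 148.2, 183.0 and 178.9 FPKM in TTPΔARE spleens and 173.9, 163.1, 168.6 and 157.7 FPKM in WT spleens (log2 0.05, adjusted p = 0.789). Rpl28 had 313.3, 262.5, 306.0 and 313.6 FPKM in TTPΔARE spleens and 294.2, 295.4, 287.6 and 283.4 FPKM in WT spleens (log2 0.04, adjusted p = 0.813). In both genes TTPΔARE replicate 2 was the lowest of all 8 spleens and the other 3 TTPΔARE values exceeded every WT value. Rps16 lies 24085 bases from Zfp36 on chromosome 7 (28350689 to 28352698, GRCm38.p6), and was named for that position. It averaged 347.7 ± 37.4 FPKM in TTPΔARE and 344.8 ± 23.3 FPKM in WT (SD, n = 4 each; log2 0.01), a sign that changed with median-of-ratios scaling and without TTPΔARE replicate 3, TTPΔARE replicate 4 or WT replicate 4.

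Large and small subunit genes had nearly the same values. The median log2 difference was -0.08 for 46 large subunit genes, with 42 below 0, and -0.10 for 32 small subunit genes, with 29 below 0. These medians were -0.02 for the large and -0.05 for the small subunit without WT replicate 1. Summed over each subunit, the ratio of large to small was 1.25, 1.25, 1.24 and 1.21 in TTPΔARE spleens and 1.24, 1.21, 1.24 and 1.24 in WT spleens. TTPΔARE replicate 4 and WT replicate 2 had the same low ratio, and the other 6 spleens lay close together. The medians of the 2 subunits differed by 0.02, about the spread of that quantity between spleens of a group (SD 0.0188).

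WT replicate 1 was the spleen that stood apart. Relative to each gene's mean over the 8 spleens, all 78 tested members were above the mean in WT replicate 1, and it held the highest value of 60 members. Its median deviation was 0.22 on the log2 scale, against 0.01, -0.004 and -0.03 for WT replicates 2, 3 and 4 and -0.09, -0.13, -0.0003 and 0.05 for TTPΔARE replicates 1 to 4. Compared with the mean of the 3 other WT spleens it was higher by 0.23 at the median of the members, with a range of 0.004 for Rpl6 to 0.56 for Rpl34. The large and small subunits did this alike, with median deviations of 0.19 and 0.23.

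At the other end, TTPΔARE replicates 1 and 2 were both low, to an extent that differed between genes. Both were below the gene's own mean for 58 members. TTPΔARE replicate 2 held the lowest value of 49 members and TTPΔARE replicate 1 that of 27, so 76 of 78 members had their lowest value in 1 of these 2 spleens. TTPΔARE replicate 1 was above replicate 2 for 50 members, 32 large and 18 small, and below it for 28. The widest gaps, picked here after the values were seen, were those of Rpl13, with 319.5 FPKM in TTPΔARE replicate 1 and 210.1 FPKM in TTPΔARE replicate 2, and of Rps2, with 362.4 FPKM in replicate 1 and 269.4 FPKM in replicate 2. Rpl39 showed the opposite gap, with 428.1 FPKM in TTPΔARE replicate 1 and 571.6 FPKM in TTPΔARE replicate 2. TTPΔARE replicate 4 was above the gene's own mean for 65 members, in contrast to 14 and 6 members for replicates 1 and 2 of its group. No label tells these spleens apart.

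**Figure D3:**
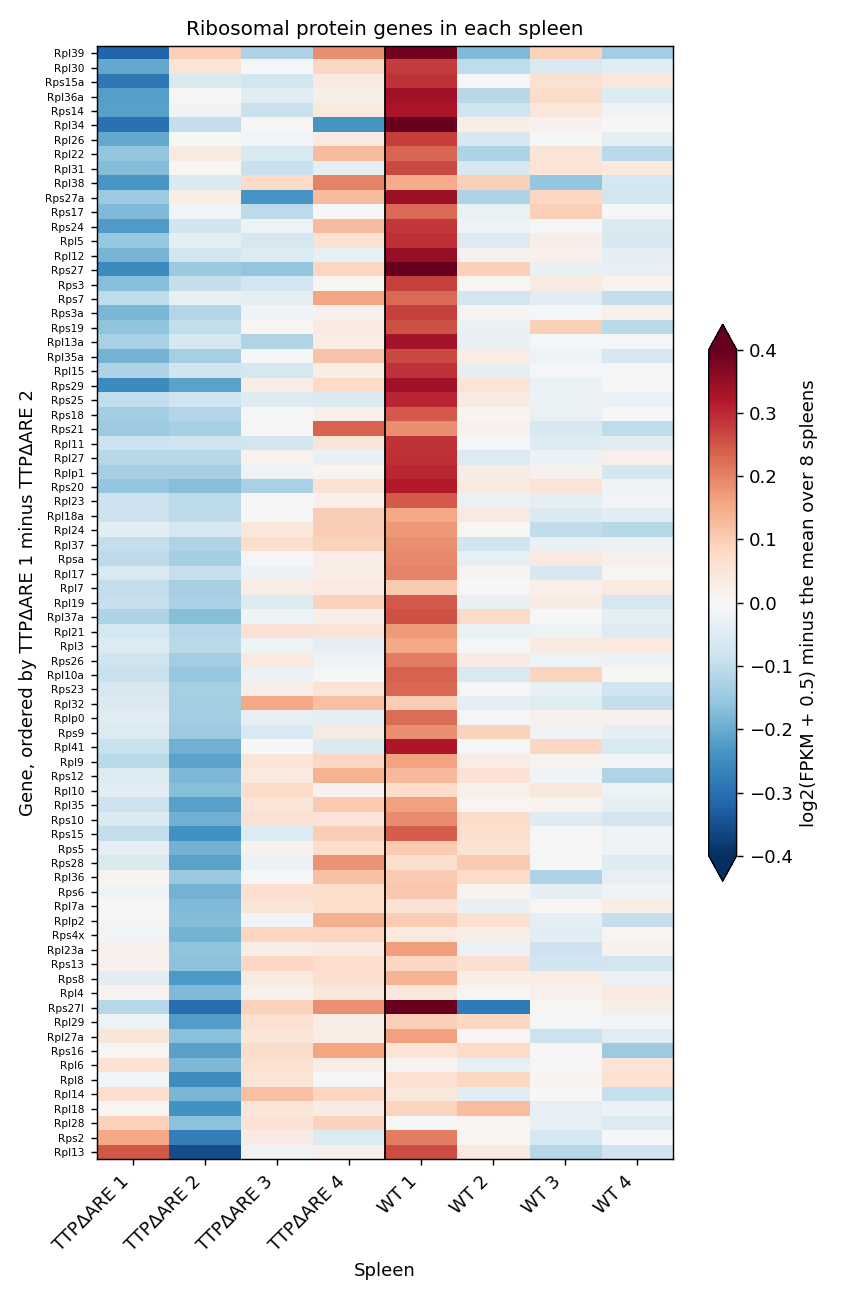
Deviation of log2(FPKM + 0.5) from each gene's mean over the 8 spleens (colour, limited to -0.4 to 0.4) for 77 of the 78 tested genes (rows, ordered by TTPΔARE replicate 1 minus replicate 2), with TTPΔARE spleens left of WT spleens. WT replicate 1 is above the mean in all 77 rows, TTPΔARE replicate 1 is low at the top and TTPΔARE replicate 2 at the bottom.

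Members varied together within the groups. After each group's mean was removed, the median Pearson correlation over the 3003 pairs of members was 0.73 across the 8 spleens, and 97.2% of pairs were above 0. It was 0.71 among large subunit genes, 0.77 among small subunit genes and 0.73 between the subunits, against 0.006 over all pairs of the 16608 transcripts. All pairs share the same 8 libraries, so the values describe these spleens only. Without WT replicate 1 the median among members was 0.60. For deviations from each gene's mean over all 8 spleens, which include the difference between genotypes, the first principal component of the members held 69.2% of the variance and the second 15.9%.

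As a share of all summed FPKM, ribosomal protein transcripts were lower in TTPΔARE. The 79 genes took 11.8, 11.8, 12.0 and 12.4% of summed FPKM in TTPΔARE spleens and 14.2, 12.8, 12.9 and 12.9% in WT spleens, without overlap, also when WT replicate 1 is left aside. Of summed FPKM without globin transcripts they took 12.8, 12.7, 13.4 and 13.8% in TTPΔARE spleens and 14.8, 13.5, 13.3 and 13.3% in WT spleens, and here the groups overlapped. The 2 TTPΔARE spleens with the higher shares by either measure, replicates 3 and 4, were also those with the most globin, 10.3 and 10.1% of summed FPKM. Before division by the total, the 79 genes summed to 24270, 23682, 25746 and 26802 FPKM in TTPΔARE spleens. In WT spleens they summed to 30060, 25944, 25784 and 25322 FPKM, so the undivided sums overlapped. The total itself ran from 196913 FPKM in WT replicate 4 to 215501 FPKM in TTPΔARE replicate 4. These sums over chosen genes carry no test. In a whole organ, fewer cells of a type and less RNA per cell cannot be told apart.

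**Figure D4:**
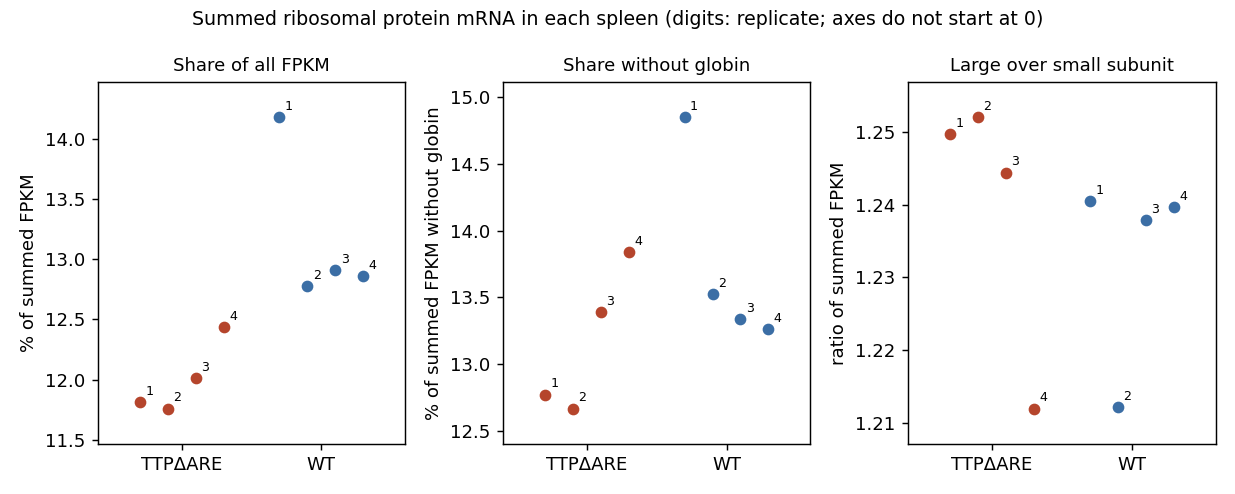
Summed FPKM of the 79 ribosomal protein genes as a percentage of all summed FPKM, the same without globin transcripts, and the ratio of large to small subunit sums, for each spleen (points with the replicate number), TTPΔARE left of WT. The first measure runs 11.8 to 12.4% in TTPΔARE and 12.8 to 14.2% in WT, the second overlaps, and the ratio is 1.21 to 1.25 in TTPΔARE and 1.21 to 1.24 in WT. The axes do not start at 0.

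Transcripts of related function were counted by lists. Of 6 ribosomal symbols outside the rule 0 passed and 5 were below 0 (median -0.09). Fau, a small subunit protein made as a fusion with a ubiquitin-like sequence, had a log2 difference of -0.10. Gnb2l1, the 40S scaffold Rack1, stood at -0.12 and the paralog Rpl22l1 at -0.33 (limma adjusted p = 0.186). Of 16 other translation genes with TOP tracts 0 passed and 12 were below 0 (median -0.06). Eef1a1, the elongation factor that delivers tRNA, averaged 2400.6 ± 53.5 FPKM in TTPΔARE and 2505.1 ± 71.8 FPKM in WT (SD, n = 4 each; log2 -0.06), and the poly(A) binding protein gene Pabpc1 217.5 ± 13.4 FPKM in TTPΔARE and 197.9 ± 12.7 FPKM in WT (log2 0.14, adjusted p = 0.306).

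Hnrnpa1, an RNA binding protein of splicing, and the initiation factor Eif4b were the 2 of these 16 genes without overlap between the groups, a share of 12.5%, which is that of all transcripts. Their log2 differences were -0.14 for Hnrnpa1 and -0.11 for Eif4b (limma adjusted p = 0.171 and 0.238). Of 76 mitochondrial ribosomal protein genes, which build a separate ribosome, only Mrps9 passed, against 4.00% of all transcripts tested. Mrps9 averaged 8.16 ± 0.388 FPKM in TTPΔARE and 10.1 ± 0.963 FPKM in WT (log2 -0.29, limma adjusted p = 0.0470). Its highest value was 11.5 FPKM in WT replicate 1, against 9.46 to 9.93 FPKM in the other WT spleens. The list median was -0.02. Of 30 ribosome biogenesis genes 0 passed and 19 were below 0 (median -0.03). Eif6, which keeps the subunits apart, stood at -0.21 and Sbds, which helps release it, at -0.17 (adjusted p = 0.0974 and 0.167). Of 9 regulators of TOP mRNAs 0 passed, with Larp1 at 0.07 and a list median of 0.01.

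WT replicate 1 was high in some of these lists and low in another. The ribosomal symbols outside the rule summed to 1405.7 FPKM in WT replicate 1 and 1191 to 1225.6 FPKM in the other WT spleens. The mitochondrial ribosomal list summed to 718.7 FPKM in WT replicate 1 and 594.0 to 649.6 FPKM in the other WT spleens, and the TOP list to 5360.0 FPKM against 4934.7 to 5099.8 FPKM. The biogenesis list was not higher there, at 438.8 FPKM against 427.9 to 463.5 FPKM, and the TOP regulators summed to 104.0 FPKM there, the lowest of all 8 spleens, against 113.3 to 120.6 FPKM in the other WT spleens. Of the listed plasma cell markers, 8 of 9 found, the sum was 625.2 FPKM in WT replicate 1 and 296.0 to 407.8 FPKM in the other WT spleens. T cell markers summed to 280.9 FPKM in WT replicate 1 and 250.5 to 263.3 FPKM in the other WT spleens. For the other marker lists WT replicate 1 lay inside the range of the other WT spleens. B cell markers summed to 1094.8 FPKM there (others 1081.3 to 1152.3 FPKM) and erythroid markers to 9685 FPKM (others 6141 to 11362 FPKM). Macrophage markers summed to 539.7 FPKM (others 455.0 to 657.5 FPKM) and neutrophil markers to 149.0 FPKM (others 93.3 to 278.4 FPKM). The part of these lists in the ribosomal values was not tested.

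Cell markers and the altered gene were checked once. Zfp36 was higher in TTPΔARE, at 57.5, 46.1, 55.1 and 52.9 FPKM, against 37.9, 42.1, 44.9 and 36.4 FPKM in WT (limma adjusted p = 0.0323). Of 23 erythroid markers found, 8 rose and 0 fell, and they summed to 14736 to 22576 FPKM in TTPΔARE spleens and 6141 to 11362 FPKM in WT spleens. Of 12 B cell markers Cd22 and Fcer2a fell (946.8 to 1020.7 FPKM summed in TTPΔARE and 1081.3 to 1152.3 FPKM in WT), and of 12 T cell markers 0 passed (226.8 to 260.9 FPKM in TTPΔARE and 250.5 to 280.9 FPKM in WT). Of 8 plasma cell markers Txndc5 fell (284.1 to 337.4 FPKM in TTPΔARE and 296.0 to 625.2 FPKM in WT), of 9 macrophage markers Emr1 rose (604.2 to 658.0 FPKM in TTPΔARE and 455.0 to 657.5 FPKM in WT), and of 9 neutrophil markers Mmp8 rose (127.2 to 232.1 FPKM in TTPΔARE and 93.3 to 278.4 FPKM in WT). No marker found had a mean under 0.5 FPKM, and markers of each listed spleen cell type were measured. These markers moved in the same spleens as the ribosomal values, and their part in them was not tested.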

How the data were processed

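RNA of 8 spleens was sequenced, 4 per genotype as labelled. The authors deposited FPKM for each RefSeq transcript in every sample. Per the submitters' processing notes, reads were aligned with BWA to mm10. Not given in the sources used here were the counting tool, annotation release, strand setting and treatment of multiply matched reads. All 8 value columns matched a sample title. Steps between values of at most 0.5 FPKM gave depths of 28.35 M to 32.25 M fragments, but only 39.5 to 42.8% of those values were whole fragments within 0.05 (8.60 to 8.78% for a typical trial depth), so no counts were rebuilt and no count model was used. The level of a member stood for a median of 6376 fragments at the lowest depth.

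The 16608 transcripts averaging 0.5 FPKM or more entered 1 limma fit (version 3.58.1, R 4.3.3) of log2(FPKM + 0.5), with a variance trend, two-sided tests and Benjamini-Hochberg adjustment over all of them. Fold changes on this scale understate those of low transcripts. Each p-value sets the difference between the groups against the spread between animals within them. That spread is moderated toward the trend over all transcripts. The fit was checked on simulated data, with each transcript drawn independently from its measured mean and spread. It recovered 52% of 50 transcripts changed 1.3-fold and 88% of 50 changed 1.5-fold, with 5 false calls among 172. The largest difference of a member, that of Rpl34, was 1.24-fold, below the smallest fold simulated. The check thus does not show how often differences of the members' size would be found. The members follow from a rule on gene symbols, but this gene family, the lists and the alternatives were chosen with earlier results of these data known. Named members are the 6 with the smallest p, the 4 highest and 2 lowest means, the 2 largest positive differences, the stalk, Rpsa, paralogs with their partners, Rps6, Rps27a, Rps16, the anaemia orthologs and members in which 1 spleen stood apart. Rpl3, Rpl13 and Rps2 were named after their values were seen. Other lists give examples by the 3 smallest p and the highest mean. Some single genes are not reported here, though counts and medians include them. Per-spleen deviations, sums and correlations are descriptions. Alternatives were pseudocounts of 0.1 and 1, no filter or a mean of at least 1 FPKM, 3 scalings, limma settings, summed transcripts and leaving out each spleen. Python 3.11.15 (pandas 2.3.3, numpy 2.4.6, matplotlib 3.10.9) made the tables and plots, and start windows from RefSeq promoter entries of GRCm38.p6.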

Additional observations from a re-analysis of the deposited data

Results flagged for a closer look

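In 25 of 156 sets of 4 values (78 members in each genotype) 1 spleen stood apart by Dixon's ratio, the gap to its nearest neighbour over the whole range, above its 95% critical value. Chance gives about 1 in 20, and the members are correlated. TTPΔARE accounted for 10 sets and WT for 15.

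In TTPΔARE, replicate 2 was low in 8 genes, of which 7 are given, with ratios of 0.857 for Rpl18, 0.915 for Rpl23a, 0.911 for Rpl27a, 0.851 for Rpl28, 0.855 for Rpl4, 0.845 for Rpl6 and 0.832 for Rplp0. Replicate 4 was high in Rpl11 (0.926) and Rps20 (0.834).

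In WT, replicate 1 was high in all 15: Rpl34 (0.964), Rpl13a (0.937), Rps3a (0.931), Rpl23 (0.912), Rpl15 (0.909), Rps3 (0.901), Rplp0 (0.900), Rpl11 (0.882), Rps18 (0.875), Rpl12 (0.863), Rpl21 (0.862), Rps24 (0.860), Rpl30 (0.860), Rps7 (0.859) and Rps25 (0.833). It was also high in the summed FPKM of the members (0.869), in their share of all FPKM (0.909) and of FPKM without globin (0.833), and in the median deviation of all members (0.863), of the large (0.838) and of the small subunit (0.849). WT replicate 2 was low in the ratio of large to small subunit sums (0.907). Why these spleens differ was not tested.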

How the results depend on the processing

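No member passed the threshold under any of 19 alternatives, with a smallest adjusted p of 0.175, and the number at an unadjusted p under 0.05 was 0 to 5. The share of all transcripts past the threshold ran from 1.19% without TTPΔARE replicate 3 to 5.30% with sample weights. Members below 0 numbered 37 with quantile normalization (main count 71) and 53 to 74 with 1 spleen left out. The median of all members was 0.003 with quantile normalization, -0.05 with globin left out and -0.12 to -0.03 with 1 spleen left out. With globin left out the median over all transcripts was 0.028. The large subunit median was 0.017 with quantile normalization. Members without overlap numbered 5 with median-of-ratios scaling (6.41%, against 12.6% of all transcripts) and 1 with quantile normalization (1.28% against 12.5%). They numbered 6 with globin left out (7.69% against 12.6%) and 3 to 14 with 1 spleen left out. Leaving out a spleen makes non-overlap easier for every transcript. The count was 14 (17.9% of members, against 15.7% of all transcripts) without TTPΔARE replicate 4, 8 (10.3% against 17.4%) without WT replicate 2, 6 (7.69%) without TTPΔARE replicate 2 (19.3% of all transcripts) or WT replicate 4 (16.5%), and 5 (6.41% against 14.4%) without TTPΔARE replicate 3.

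Of 437 values of named members 19 changed sign, in Rplp2, Rps16, Rps6, Rpl39 and Rps27l. Rps16 was -0.00057 with median-of-ratios scaling. With quantile normalization Rpl39 was 0.0026, Rplp2 0.089 and Rps6 0.072, and Rplp2 was 0.0098 with globin left out. With sample weights Rplp2 was 0.010, Rps27l 0.015 and Rps6 0.0019. With 1 spleen left out Rpl39 ran from -0.16 to 0.032, Rplp2 from -0.070 to 0.036, Rps27l from -0.18 to 0.049, Rps6 from -0.061 to 0.025 and Rps16 from -0.043 to 0.082. Quantile normalization gives each rank the same value in every spleen, and many of the top ranks are members. The cause of the changes was not tested for any setting. Without WT replicate 1 Rps27a was -0.02, Rps6 -0.002 and Rpl14 0.07. No paired analysis was possible because the labels give no litter, batch or pairing. The replicate numbers used here follow the order of the sample titles and match no animals between the genotypes. With 4 spleens a group, the 95% interval of a typical member reached 0.18 to either side on the log2 scale.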
